A study of Mus musculus with 19 samples.

Results

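The liver mRNA levels of 9 genes that encode hepatokines and other secreted regulators of metabolism were examined: Fgf21, Inhbe, Angptl8, Angptl4, Igfbp1, Igfbp2, Fetub, Lect2 and Hamp. They were picked by name as liver-secreted proteins, by a rule that uses no measured value but with earlier results of these data known, and all 9 were found by Ensembl identifier among the 49315 genes counted. The study asked whether loss of Aster-C, the sterol transfer protein encoded by Gramd1c, changes cholesterol handling in mice fed different amounts of cholesterol. Bulk RNA sequencing was done on liver from 19 female mice, with 1 library per mouse. The groups were 5 Gramd1c-/- and 5 Gramd1c+/+ mice on a high cholesterol diet (0.2% by weight), and 4 Gramd1c-/- and 5 Gramd1c+/+ mice on a low cholesterol diet (0.02% by weight), each fed for 4 weeks from 8 weeks of age. All groups shared a C57BL/6N background (the line's strain name is C57BL/6N-Atm1Brd Gramd1ctm1a(KOMP)Wtsi/JMmucd) and came from crosses of heterozygous mice, and per the study's methods most mice were fasted for 4 h before the liver was taken. The Gramd1c-/- mice were knockouts in the whole body through a knockout-first (tm1a) allele, so a difference in liver need not arise in liver.

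The tissue field of the labels names gonadal adipose tissue and the cell type field names liver. The 6 hepatocyte markers examined (albumin, Apoa1, Ttr, Serpina1a, Cyp2e1 and Ass1) summed to 8.54e+04 to 1.345e+05 TPM (a level scaled for gene length and for the depth of each library) in every mouse. Their summed range was 8.54e+04 to 1.168e+05 TPM on high cholesterol and 1.024e+05 to 1.345e+05 TPM on low cholesterol. Total counts were 27149972 to 34669648 per mouse. Gramd1c had 1.07 to 3.61 TPM in Gramd1c-/- mice and 9.56 to 15.99 TPM in Gramd1c+/+ mice, which separated the genotypes in every mouse. A pair of libraries stood apart and was also left out together. Mouse 2 of the Gramd1c+/+ group on low cholesterol held 621.6 TPM of 7 summed adrenal cortex markers, against 1.76 to 4.597 TPM in the other mice, and 158.2 TPM of 8 summed adipocyte markers, against 10.24 to 20.3 TPM. Mouse 5 of the Gramd1c-/- group on high cholesterol lay at 68.95 on the first principal component (27.35% of the variance), against -31.6 to 33.2 in the others. Other libraries were also high in a marker list. Mouse 3 of the Gramd1c-/- group on high cholesterol held 216.5 TPM of 6 summed cholangiocyte markers, against 43.08 to 85.52 TPM in other mice. It also held 80 TPM of 9 summed exocrine pancreas markers, against 17.21 to 51.61 TPM. Mouse 4 of that group held 987 TPM of 8 summed Kupffer cell and macrophage markers, against 213.6 to 534.8 TPM. Those were left out only 1 mouse at a time. For Angptl8, Igfbp1, Fgf21 and Inhbe, some log2 fold changes that move by over 1.5 times without that first pair are given both ways.

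Hepatokines are proteins that the liver releases into blood and that act on other organs, much as adipokines do from fat. Several are set by the fed or fasted state: insulin represses Igfbp1 and induces Angptl8, while fasting, PPAR-alpha and the integrated stress response induce Fgf21. ANGPTL proteins control lipoprotein lipase, the enzyme that splits triglyceride in blood so that muscle and fat can take up its fatty acids. IGF binding proteins hold insulin-like growth factors in plasma.

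The promoters of the 4 genes with the widest or most diet-related spread are shown, since Fgf21 and Inhbe varied together from mouse to mouse and Angptl8 and Igfbp1 had the diet differences with the smallest p-values. Each runs from 250 bases before to 50 bases after the RefSeq start (build GRCm38.p6). The 5 motifs were chosen with these results known: TGATGNAA (the core of composite elements bound by ATF4), TGTTTTG (the core of insulin response elements bound by FoxO factors), CACGTG (an E-box), TCACNCCAC (a sterol regulatory element) and TTGCNNAA (a C/EBP core), searched on both strands. Capitals mark every match.
Fgf21 (chr7:45615441-45615740, minus strand): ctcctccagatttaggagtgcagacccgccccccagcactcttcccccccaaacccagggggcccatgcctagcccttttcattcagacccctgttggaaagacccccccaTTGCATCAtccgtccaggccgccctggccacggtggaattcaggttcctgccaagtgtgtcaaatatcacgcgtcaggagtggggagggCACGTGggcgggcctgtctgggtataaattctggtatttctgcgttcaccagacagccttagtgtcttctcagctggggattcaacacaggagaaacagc
Inhbe (chr10:127351799-127352098, minus strand): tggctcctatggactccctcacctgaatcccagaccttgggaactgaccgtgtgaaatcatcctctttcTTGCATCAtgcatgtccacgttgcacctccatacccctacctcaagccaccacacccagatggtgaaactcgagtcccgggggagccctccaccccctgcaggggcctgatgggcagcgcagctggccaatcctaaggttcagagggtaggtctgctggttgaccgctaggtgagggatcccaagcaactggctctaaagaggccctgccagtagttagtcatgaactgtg
Angptl8 (chr9:21835260-21835559, plus strand): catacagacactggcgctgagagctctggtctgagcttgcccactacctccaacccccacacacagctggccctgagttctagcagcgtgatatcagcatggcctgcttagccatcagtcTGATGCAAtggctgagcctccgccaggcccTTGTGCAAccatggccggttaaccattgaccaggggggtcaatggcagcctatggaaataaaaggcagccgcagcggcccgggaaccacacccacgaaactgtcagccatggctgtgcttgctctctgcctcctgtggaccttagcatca
Igfbp1 (chr11:7197537-7197836, plus strand): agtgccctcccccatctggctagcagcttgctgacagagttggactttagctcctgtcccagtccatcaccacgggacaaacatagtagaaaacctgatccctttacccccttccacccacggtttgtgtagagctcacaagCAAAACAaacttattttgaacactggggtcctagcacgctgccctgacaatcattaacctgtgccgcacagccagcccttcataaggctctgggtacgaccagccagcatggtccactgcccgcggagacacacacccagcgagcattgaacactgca
The ATF4 core stood in the promoters of Fgf21 (TTGCATCA, positions -139 to -132 from the start), Inhbe (TTGCATCA, -181 to -174) and Angptl8 (TGATGCAA, -130 to -123), and in 3.91% of 32544 mouse promoters of the same length. The FoxO core stood in the Igfbp1 promoter (CAAAACA, -108 to -102) and in 6.32% of all promoters. Fgf21 also held an E-box at -50 to -45 (7.17% of all promoters), as did Igfbp2 at -142 to -137, and Angptl8 a C/EBP core at -100 to -93 (10.8%). The sterol regulatory element stood in none of the 8 members' windows and in 1.24% of all promoters, and no motif of the 5 stood in those of Fetub, Lect2 or Hamp. Of the 9 genes, 8 matched the promoter table by symbol (all but Angptl4). A match describes the sequence and is not evidence of binding. The RefSeq start of Inhbe lies 76 bases from the start of the gene as counted, and those of the other 3 printed promoters at most 5 bases from it.

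The 9 genes covered a wide range of levels. Hamp was the most abundant (mean 3986 TPM over 19 mice, 36th of all genes), followed by Igfbp2 (824 TPM), Fetub (715 TPM) and Lect2 (328 TPM). Angptl4 (83.2 TPM), Igfbp1 (76.1 TPM), Inhbe (52.2 TPM) and Angptl8 (32.3 TPM) formed a middle group, and Fgf21 was far below them at 3.33 TPM (9029th). The 4 least abundant genes varied most between mice. The coefficient of variation over all mice was 72.1% for Fgf21, 67.2% for Angptl8, 42.0% for Igfbp1 and 37.7% for Inhbe, and 14.1 to 25.1% for the other 5. The highest mouse exceeded the lowest 67.5-fold for Fgf21, 17.5-fold for Angptl8 and 1.85-fold for Lect2. In bulk liver, fewer cells of a type and less RNA per cell cannot be told apart.

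**Figure D1:**
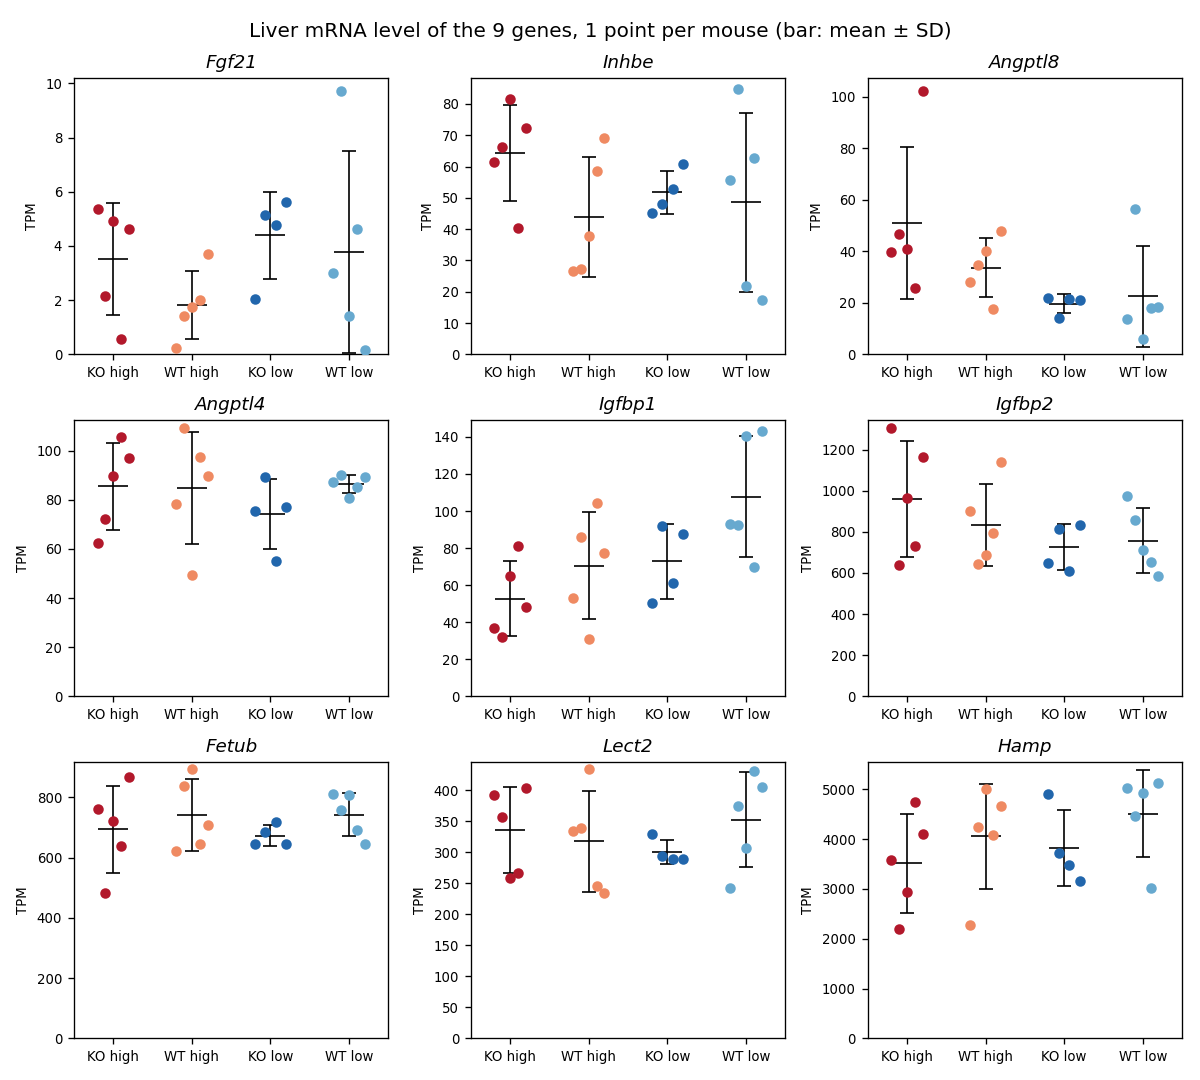
TPM of the 9 genes in each mouse (points), by genotype and diet, with the group mean and SD (bars); KO is Gramd1c-/- and WT is Gramd1c+/+, high and low are the diets. Angptl8 lies between 25.8 and 102 TPM in the Gramd1c-/- mice on high cholesterol and between 14.1 and 21.8 TPM in those on low cholesterol, while the other 8 genes overlap in each comparison of diets within a genotype or genotypes within a diet.

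Counts were compared with the quasi-likelihood test of edgeR in 1 model of the 4 groups over 15016 genes, and genes with an adjusted p under 0.05 (Benjamini-Hochberg) are referred to as called. None of the 9 genes was called in any of 7 comparisons, nor by DESeq2 or by limma on log2(TPM + 1). For high against low cholesterol averaged over genotypes, 0 of 9 were called with edgeR and 1.3% of all genes were, while 2 of 9 had an unadjusted p under 0.05, against 18.3% of all genes. In Gramd1c-/- mice alone the diet comparison gave 0 of 9 called with edgeR (0.326% of all genes) and 1 of 9 with an unadjusted p under 0.05 (11.4% of all genes). In Gramd1c+/+ mice alone it gave 0 of 9 (0.44%) and 1 of 9 (7.93%) by the same test. Few genes of any kind were called between the genotypes: Gramd1c itself was the 1 gene called with edgeR on low cholesterol, on high cholesterol and averaged over diets (0.00666% of all genes each time). For genotype, the 9 genes had 0, 0 and 1 with an unadjusted p under 0.05 in these comparisons, against 2.66%, 2.42% and 2.98% of all genes. The study, at its own threshold (p of 0.05 or less), reported further genes altered by genotype on low cholesterol, among them Cyp3a and Mup genes. The genotype by diet interaction, which asks whether the diet effect depends on Gramd1c, had 0 of 9 and 0% of all genes called with edgeR, and 0 of 9 with an unadjusted p under 0.05, against 1.66% of all genes. Counts of 0 to 2 among 9 genes do not set them apart from all genes, and a p above the threshold does not show equal levels. GEO's labels treat each mouse as a separate sample of its group.

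**Figure D2:**
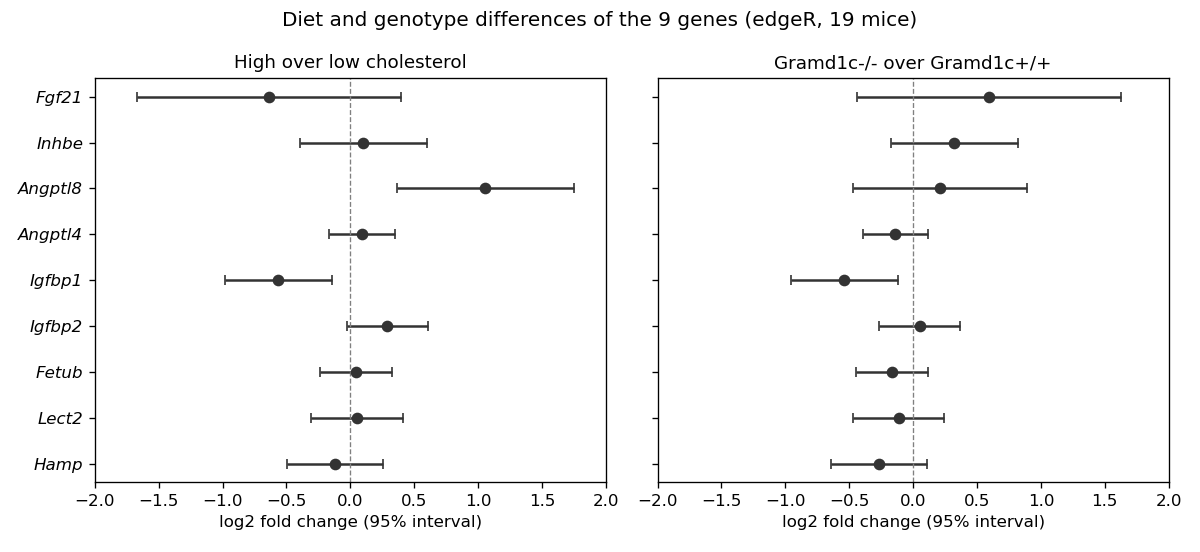
Log2 fold change of the 9 genes with its 95% interval (edgeR, 19 mice), for high over low cholesterol averaged over genotypes (left) and for Gramd1c-/- over Gramd1c+/+ averaged over diets (right). The intervals leave out 0 for Angptl8 (1.06) and Igfbp1 (-0.56) in the diet panel and for Igfbp1 (-0.54) in the genotype panel, and none of the 18 differences passed the adjusted threshold.

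Angptl8, an insulin- and feeding-induced protein that binds ANGPTL4 and takes part in the control of lipoprotein lipase, had the widest diet difference of the 9 when averaged over genotypes. Its gene lies at chr9:21835510-21837347 (GRCm38) inside Dock6 on the other strand, and their exons do not overlap. On high cholesterol it had 39.6, 46.8, 40.8, 25.8 and 102 TPM in Gramd1c-/- mice and 27.9, 34.7, 40.1, 17.7 and 47.8 TPM in Gramd1c+/+ mice. On low cholesterol it had 21.8, 14.1, 21.5 and 21.02 TPM in Gramd1c-/- mice and 13.6, 56.3, 5.83, 18 and 18.5 TPM in Gramd1c+/+ mice. All 5 Gramd1c-/- mice on high cholesterol were above all 4 on low cholesterol. In Gramd1c+/+ mice the diets overlapped. Mouse 2 on low cholesterol, the library with adrenal and adipocyte transcripts, was the highest of the 10, and the lowest mouse on high cholesterol (17.7 TPM) was below it and 2 others on low cholesterol.

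Averaged over genotypes, Angptl8 was 2.08-fold higher on high cholesterol in edgeR (95% interval 1.29 to 3.36, log2 fold change 1.06 ± 0.32 SE), with an unadjusted p of 0.00394 and an adjusted p of 0.106. With mouse 2 of the low cholesterol Gramd1c+/+ group left out it was 1.35 and passed the threshold (adjusted p = 0.0219, edgeR). Without that mouse and mouse 5 of the Gramd1c-/- group on high cholesterol it was 1.11 (adjusted p = 0.0204, edgeR). With only mouse 5 of the Gramd1c-/- group on high cholesterol left out it was 0.82 and did not pass (adjusted p = 0.186, edgeR). Over all alternatives the adjusted p ranged from 0.0204 to 0.24, so the call rested on which libraries entered the fit. The part of the adrenal and adipocyte transcripts in the Angptl8 level of mouse 2 was not tested.

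Within Gramd1c-/- mice, Angptl8 averaged 51.0 ± 29.6 TPM on high and 19.6 ± 3.7 TPM on low cholesterol (SD, n = 5 and 4), and a two-sided exact permutation test of the means gave p = 0.0159. The smallest p this test can give is 0.00794. This was the 1 of 36 such tests (9 genes in 4 comparisons) under 0.05, and ranges that do not overlap in this comparison were found for 3.46% of all genes. The edgeR log2 fold change there was 1.39 (95% interval 0.37 to 2.41, adjusted p = 0.337), and 0.92 without mouse 5, the highest (adjusted p = 0.755). Within Gramd1c+/+ mice it was 0.72 (95% interval -0.21 to 1.66, adjusted p = 0.707, edgeR), with 33.7 ± 11.5 TPM on high and 22.5 ± 19.6 TPM on low cholesterol. Without mouse 2 it was 1.30 (adjusted p = 0.408, edgeR). The diet effects of the genotypes differed by 0.67 on the log2 scale (95% interval -0.69 to 2.03, adjusted p = 0.9999, edgeR interaction), a difference that these mice did not resolve, and by 0.09 without mouse 2 of the Gramd1c+/+ group on low cholesterol, 0.20 without mouse 5 of the Gramd1c-/- group on high cholesterol and -0.38 without both.

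The 14 genes listed as lipogenic or insulin-induced, a class to which Angptl8 is often assigned, fell where they were called. Averaged over genotypes 4 of 14 were called lower on high cholesterol and 0 higher, with a median log2 fold change of -0.44 over the list, against 0.02 over all genes tested. Of the other 10 genes, which did not pass, 4 had positive values, among them the transcription factor genes Mlxipl (0.78, adjusted p = 0.0544, edgeR) and Srebf1 (0.37, adjusted p = 0.202, edgeR), named after their values were seen. The 4 called genes were the ATP citrate lyase Acly (-1.25, adjusted p = 0.00179, edgeR), the fatty acid synthase Fasn (-1.20, adjusted p = 0.00388, edgeR), the acetyl-CoA carboxylase Acacb (-1.11, adjusted p = 0.0321, edgeR) and the malic enzyme Me1 (-0.67, adjusted p = 0.0133, edgeR). Fasn averaged 33.1 TPM in Gramd1c-/- and 37.9 TPM in Gramd1c+/+ mice on high cholesterol, and 86.6 TPM in Gramd1c-/- and 72.7 TPM in Gramd1c+/+ mice on low cholesterol. Of the 12 cholesterol synthesis genes and sterol-regulated partners listed, all 12 fell on high cholesterol (median log2 fold change -2.66), led by Cyp51 (-3.35) and Sqle (-4.53), which encode steps of sterol synthesis.

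**Figure D3:**
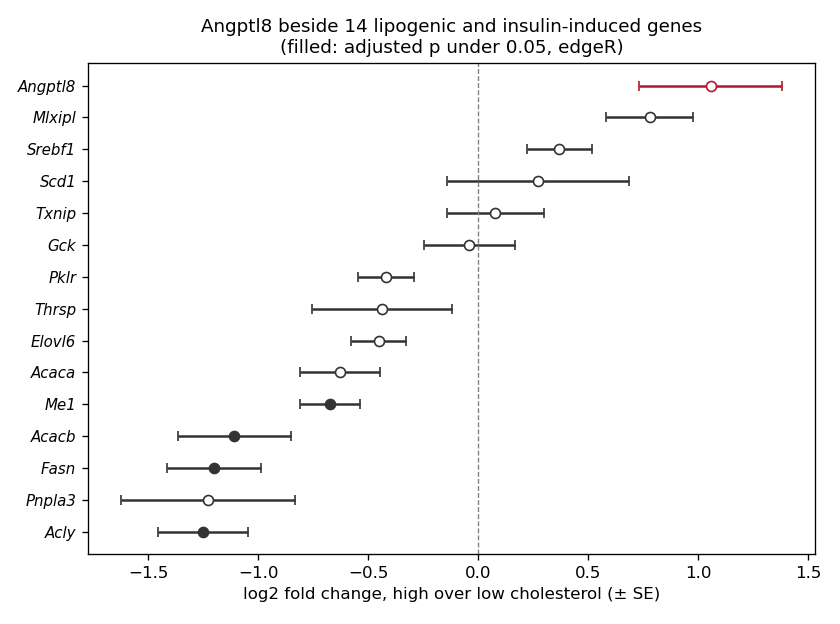
Log2 fold change for high over low cholesterol averaged over genotypes (edgeR, ± SE) of Angptl8 (red) and the 14 lipogenic and insulin-induced genes, with filled points for genes with an adjusted p under 0.05. Angptl8 is at 1.06, above all 14 genes, and the 4 filled points lie between -1.25 (Acly) and -0.67 (Me1).

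Angptl4, an inhibitor of lipoprotein lipase that fasting, PPAR-alpha and glucocorticoids induce, differed little. It averaged 85.4 ± 17.8 TPM in Gramd1c-/- and 84.8 ± 22.8 TPM in Gramd1c+/+ mice on high cholesterol (SD, n = 5 each). Means on low cholesterol were 74.2 ± 14.2 TPM in Gramd1c-/- and 86.5 ± 3.7 TPM in Gramd1c+/+ mice (SD, n = 4 and 5). The 5 Gramd1c+/+ mice on low cholesterol lay within 80.7 to 89.9 TPM, and 3 of the 4 Gramd1c-/- mice were below all of them (55.1, 75.4 and 77.0 TPM, with the 4th at 89.3 TPM), which gave an exact permutation p of 0.0794. Its diet effect averaged over genotypes was 0.09 (95% interval -0.17 to 0.35) and its genotype effect -0.14 (-0.40 to 0.12) on the log2 scale. No gene of the ANGPTL and lipoprotein lipase list (14 of 15 tested) was called for diet or genotype with edgeR.

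Igfbp1, the insulin-repressed binding protein that restrains free IGF-1 between meals, was the 1 member whose 95% interval left out 0 for both diet and genotype, each averaged over the other factor, although neither passed the adjusted threshold. On high cholesterol it had 36.8, 32.1, 65.1, 81.1 and 48.2 TPM in Gramd1c-/- mice and 53.3, 86.1, 31.1, 104.6 and 77.5 TPM in Gramd1c+/+ mice. On low cholesterol it had 50.3, 91.8, 61.4 and 87.6 TPM in Gramd1c-/- mice and 92.8, 92.5, 140.4, 70.1 and 143.3 TPM in Gramd1c+/+ mice. The Gramd1c+/+ mice on low cholesterol held the highest values, with 2 above 140 TPM, and the Gramd1c-/- mice on high cholesterol the lowest mean, but each pair of groups overlapped.

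Averaged over genotypes, Igfbp1 was at 0.676 of its low cholesterol level on high cholesterol (95% interval 0.506 to 0.904, log2 fold change -0.56 ± 0.20 SE), with an unadjusted p of 0.00946 and an adjusted p of 0.149 in edgeR. The adjusted p of this difference ranged from 0.0818 to 0.287 over all alternatives. Averaged over diets, it was at 0.689 of its Gramd1c+/+ level in Gramd1c-/- mice (0.514 to 0.923, log2 fold change -0.54 ± 0.20 SE, unadjusted p = 0.0134, adjusted p = 0.999, edgeR), which placed it 74th of 15016 genes by p. In that comparison 2.98% of all genes had an unadjusted p under 0.05 (edgeR), and with that adjusted p the rank does not set Igfbp1 apart. The direction of its genotype difference was negative on low (-0.59) and on high cholesterol (-0.48). The exact permutation p for genotype was 0.0873 on low and 0.286 on high cholesterol, and for diet 0.111 in Gramd1c+/+ and 0.190 in Gramd1c-/- mice. The interaction was 0.11 (95% interval -0.73 to 0.94) and 0.19 without both libraries that stood apart, and its sign turned when any of 5 single mice was left out.

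Igfbp2, the second IGF binding protein of the set and the most abundant after Hamp, averaged 961 ± 282 TPM in Gramd1c-/- and 834 ± 198 TPM in Gramd1c+/+ mice on high cholesterol. On the low cholesterol diet the means were 726 ± 114 TPM in Gramd1c-/- and 756 ± 158 TPM in Gramd1c+/+ mice (SD, n = 4 and 5). Its diet effect was 0.29 on the log2 scale (95% interval -0.03 to 0.61, unadjusted p = 0.0683, adjusted p = 0.307, edgeR), opposite in sign to that of Igfbp1. Its genotype effect was 0.05 (-0.27 to 0.37). None of the 14 genes of the IGF axis list, which holds the growth factors, their receptors and other binding proteins, was called with edgeR.

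Fgf21, the fasting- and stress-induced hormone that signals through FGF receptors with the co-receptor beta-Klotho, rested on only 2 to 125 counts per mouse. On high cholesterol it had 5.35, 2.15, 4.91, 0.575 and 4.63 TPM in Gramd1c-/- mice and 0.238, 1.42, 1.75, 2.02 and 3.70 TPM in Gramd1c+/+ mice. On low cholesterol it had 2.05, 5.15, 4.77 and 5.61 TPM in Gramd1c-/- mice and 2.99, 9.70, 1.41, 4.61 and 0.144 TPM in Gramd1c+/+ mice. Single mice near 0 occurred in 3 of the 4 groups, and the highest, at 9.70 TPM, was again mouse 2 of the Gramd1c+/+ group on low cholesterol.

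The genotype effect on Fgf21 averaged over diets was 0.59 on the log2 scale (95% interval -0.44 to 1.62) and the diet effect averaged over genotypes -0.64 (-1.67 to 0.39), each spanning more than a 4-fold range. Without mouse 2 of the Gramd1c+/+ group on low cholesterol these were 0.90 and -0.33. In Gramd1c+/+ mice alone the diet effect was -0.95 with and -0.34 without that mouse. On high cholesterol alone Fgf21 averaged 3.52 ± 2.07 TPM in Gramd1c-/- and 1.83 ± 1.25 TPM in Gramd1c+/+ mice (SD, n = 5 each, exact permutation p = 0.135). Neither Klb, which encodes beta-Klotho, nor the FGF receptors tested (5 of 6 genes on that list passed the filter) were called with edgeR.

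Inhbe encodes the activin beta E subunit, a liver-secreted ligand of the TGF-beta family that acts on adipose tissue. On high cholesterol it had 61.6, 66.2, 81.5, 40.3 and 72.4 TPM in Gramd1c-/- mice and 26.5, 27.2, 37.7, 58.6 and 69.2 TPM in Gramd1c+/+ mice. On low cholesterol it had 45.3, 48.0, 52.7 and 60.8 TPM in Gramd1c-/- mice and 55.8, 84.8, 22.0, 62.9 and 17.4 TPM in Gramd1c+/+ mice. The Gramd1c+/+ groups held all 5 mice below 40 TPM, and no Gramd1c-/- mouse was below 40.3 TPM. The group means were 64.4 ± 15.4 TPM in Gramd1c-/- and 43.9 ± 19.2 TPM in Gramd1c+/+ mice on high cholesterol (SD, n = 5 each, exact permutation p = 0.0952).

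The edgeR genotype effect on Inhbe was 0.52 on high cholesterol (95% interval -0.16 to 1.20), 0.12 on low cholesterol (-0.60 to 0.84) and 0.32 averaged over diets (-0.17 to 0.82), with adjusted p = 0.999 for the average. The low cholesterol value turned to -0.05 or -0.09 when mouse 3 or mouse 5 of the Gramd1c+/+ group was left out. The diet effect averaged over genotypes was 0.10 (-0.40 to 0.60). Without mouse 2 of the Gramd1c+/+ group on low cholesterol, the genotype effect on low cholesterol was 0.34 and the averaged diet effect 0.21. The averaged diet effect was 0.06 without mouse 5 of the Gramd1c-/- group on high cholesterol. Of the activin subunits, antagonists and receptors listed, 10 of 13 were tested and none was called with edgeR. An antisense gene, Gm47200, overlaps Inhbe without sharing exonic bases, and its level was not analysed here.

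Fgf21 and Inhbe varied together from mouse to mouse. Over 19 mice, with each group's mean removed from log2 CPM, Pearson's r was 0.877 (permutation p = 4e-05, adjusted 0.00144 over 36 pairs of members) and Spearman's rho 0.786 (permutation p = 0.00067, adjusted 0.0241), with mice permuted within groups. Without the 2 mice farthest from the Fgf21 median, r was 0.792. Without mouse 2 of the Gramd1c+/+ group on low cholesterol it was 0.849, and without mouse 5 of the Gramd1c-/- group on high cholesterol 0.874. The Gramd1c+/+ group on low cholesterol shows the pairing at its widest, since mouse 2 had the most of both (9.70 TPM of Fgf21 and 84.8 TPM of Inhbe) and mouse 5 the least of both (0.144 and 17.4 TPM). No other pair passed the adjustment, the next being Angptl4 with Igfbp1 (r = 0.644, adjusted permutation p = 0.131) and Fetub with Hamp (r = 0.649, adjusted permutation p = 0.176). The median absolute r over the 36 pairs was 0.237.

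**Figure D4:**
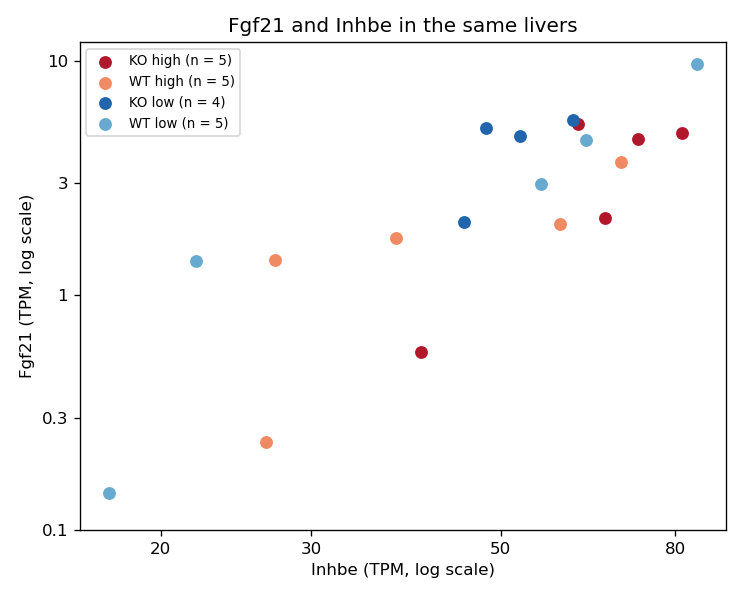
Fgf21 against Inhbe in TPM, both on log axes, 1 point per mouse, coloured by genotype and diet (KO is Gramd1c-/-, WT is Gramd1c+/+). Mice with more Inhbe tend to have more Fgf21 across the range of 17.4 to 84.8 TPM of Inhbe and 0.144 to 9.70 TPM of Fgf21.

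The genes most like each member over the mice, by r of log2 CPM with group means removed, were taken from all 15016 genes tested and are given as a description of 19 mice that share their libraries. Inhbe was the second closest gene to Fgf21, after Slc17a8 (r = 0.882) and before Paqr9 (0.872), and Fgf21 was the closest to Inhbe, before 2010003K11Rik (0.863) and Zfp608 (0.845). For Angptl8 they were Nfkbiz (0.903), Gm26819 (0.896) and Neat1 (0.867). For Angptl4 they were Lpin2 (0.861), Il1r1 (0.829) and Tmc7 (0.790), and for Igfbp1 Fxr2 (0.882), Tob2 (0.841) and Ubr2 (0.836). Igfbp2 had no gene as close, its first being Nfe2l3 at 0.761, then Cyp4a31 (0.758) and 4930452B06Rik (0.752). The highest values were those of Lect2 and Fetub: Fetub with Pqbp1 (0.953), Proc (0.948) and Spag7 (0.941), and Lect2 with Mien1 (0.956), Spp2 (0.951) and Svbp (0.950). Hamp was closest to Gpatch1 (0.895), Ecm1 (0.863) and Ess2 (0.854).

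The same measure was taken against the pathway lists, again as a description, since genes of a list are not independent. Igfbp1 had a positive r with all 10 FoxO and fasting genes (median 0.506, range 0.193 to 0.693), against 49.8% of all other genes with a median of -0.002. Hamp was also positive with 10 of these 10 (median 0.323) and Angptl4 with 9 of 10 (median 0.239). Inhbe had a positive r with 1 of these 10 (median -0.655), Fgf21 with 2 of 10 (median -0.556) and Angptl8 with 0 of 10 (median -0.385). Without the 2 libraries that stood apart, the medians of Inhbe, Fgf21 and Angptl8 were -0.570, -0.418 and -0.401. Those of Igfbp1, Hamp and Angptl4 were then 0.487, 0.3875 and 0.347. Igfbp1 was also positive with 7 of 9 glucocorticoid-responsive genes (median 0.606) and with 13 of 14 lipogenic and insulin-induced genes (median 0.387). Angptl4 was positive with as many genes of both lists (medians 0.509 and 0.226). Hamp was positive with 9 of the 9 glucocorticoid-responsive genes, with a lower median (0.268). Angptl8 was positive with 5 of the 14 lipogenic and insulin-induced genes (median -0.250). The PPAR-alpha targets ran with Inhbe in 15 of 15 genes (median 0.323) and with Fgf21 in 14 of 15 (median 0.324), and these medians were 0.531 and 0.553 without the 2 libraries that stood apart. Igfbp2 was positive with 12 of these 15 (median 0.152, and 0.378 without those libraries). The PPAR-alpha targets had a positive r with Angptl4, itself a PPAR-alpha target, in 3 of 15 (median -0.205, and -0.126 without those libraries). Hamp and Lect2 were positive with 1 of 15 each (medians -0.3055 and -0.372, and -0.216 and -0.2665 without those libraries). Angptl8 and Fetub were positive with 2 of 15 each (medians -0.209 and -0.1865), and their medians were 0.106 and 0.0605 without those libraries. With the glucocorticoid-responsive genes, Inhbe (median -0.482), Fgf21 (-0.352) and Igfbp2 (-0.196) each had a positive r in 0 of 9. The integrated stress response list was divided, with 7 of 13 genes positive for Fgf21 (median 0.043) and 6 of 13 for Inhbe (median -0.005). Without the 2 libraries that stood apart, these medians were -0.097 and -0.191. None of the 13 stress response genes and none of the 15 PPAR-alpha targets was called for diet or genotype with edgeR.

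Fetub encodes fetuin-B, a cystatin-family protease inhibitor needed for female fertility, and was the steadiest of the 9. It averaged 694 ± 144 TPM in Gramd1c-/- and 741 ± 120 TPM in Gramd1c+/+ mice on high cholesterol, and 673 ± 34 TPM in Gramd1c-/- and 743 ± 73 TPM in Gramd1c+/+ mice on low cholesterol (SD, n = 5, 5, 4 and 5). Its diet effect was 0.05 on the log2 scale (95% interval -0.24 to 0.33) and its genotype effect -0.16 (-0.45 to 0.12). The other plasma cystatin-family genes listed (6 of 7 tested) included none that was called with edgeR.

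Lect2, a hepatokine first described as a leukocyte chemotactic factor, averaged 335 ± 69 TPM in Gramd1c-/- and 317 ± 81 TPM in Gramd1c+/+ mice on high cholesterol. The low cholesterol means were 300 ± 20 TPM in Gramd1c-/- and 352 ± 77 TPM in Gramd1c+/+ mice (SD, n = 4 and 5). The 4 Gramd1c-/- mice on low cholesterol lay within 288 to 330 TPM, inside the range of 243 to 431 TPM of the Gramd1c+/+ mice. Its diet effect was 0.05 on the log2 scale (95% interval -0.31 to 0.41) and its genotype effect -0.11 (-0.47 to 0.24).

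Hamp encodes hepcidin, the hormone that closes the iron exporter ferroportin, and its counts may be shared with the near-identical copy Hamp2, so its values are uncertain. It averaged 3517 ± 992 TPM in Gramd1c-/- and 4060 ± 1056 TPM in Gramd1c+/+ mice on high cholesterol. The low cholesterol means were 3821 ± 762 TPM in Gramd1c-/- and 4511 ± 872 TPM in Gramd1c+/+ mice (SD, n = 4 and 5). The mean was lower in Gramd1c-/- mice on both diets, with overlapping ranges, and Gramd1c-/- minus Gramd1c+/+ was -0.26 on the log2 scale (95% interval -0.64 to 0.11, adjusted p = 0.999, edgeR). Its diet effect was -0.12 (-0.50 to 0.25). Hamp2 ranged more widely, from 217 to 2666 TPM, and none of the 20 genes of the hepcidin control and iron list was called with edgeR.

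Among 16 other hepatokines listed, Gdf15, a stress-induced hormone that acts on the hindbrain, and Itih3, a plasma hyaluronan-binding protein, were called for diet averaged over genotypes. Gdf15 averaged 18.2 ± 11.5 TPM in Gramd1c-/- and 19.1 ± 7.0 TPM in Gramd1c+/+ mice on high cholesterol, against 5.995 ± 2.07 TPM in Gramd1c-/- and 5.10 ± 3.53 TPM in Gramd1c+/+ mice on low cholesterol (SD, n = 5, 5, 4 and 5). It rose by 1.81 ± 0.31 (SE) on the log2 scale (adjusted p = 0.00284, edgeR), and by 2.02 in Gramd1c+/+ mice alone (adjusted p = 0.0350, edgeR). In Gramd1c-/- mice alone Gdf15 was not called. There its range was 8.62 to 37.6 TPM on high and 4.02 to 8.44 TPM on low cholesterol. Ranges that do not overlap in that comparison were found for 3.46% of all genes. Itih3 fell by 0.48 on the log2 scale (adjusted p = 0.0222, edgeR). No gene of the 16 pathway lists was called for genotype or for the interaction with edgeR, and the lists of glucocorticoid-responsive, acute phase, circadian clock, FoxO and LECT2 receptor genes had none called for diet.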

How the data were processed

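Liver poly(A) RNA of 19 mice was sequenced. The files deposited for each mouse hold raw counts by Ensembl identifier, beside the position and length of each gene, with no normalization. STAR 2.5.2b and GRCm38 are named in the submitters' processing notes. How reads were counted, with which strand setting and annotation, is not given in the sources used here, so reads of a gene and its antisense partner cannot be told apart. Identifiers were matched to GENCODE M21 symbols. TPM was computed from counts and lengths. The count model was that of edgeR 4.0.16 under R 4.3.3 (TMM, filterByExpr with a minimum count of 10, all 19 mice in 1 model of 4 groups, quasi-likelihood F test, 15016 genes, checked on simulated data), and TPM with two-sided exact permutation tests. Pairs of members used log2(CPM + 0.5) with group means removed and 1e+05 permutations.

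The genes named were all 9 members, the 3 genes most like each, called genes of the pathway lists (up to 4 per list and comparison) and Gramd1c. Members and lists were chosen with earlier results of these data known, although the members' rule itself uses no measured value. The motifs, the genes shown in full, and Klb, Hamp2, Inhbc, Mlxipl and Srebf1 were chosen after their values were seen. Some genes are not reported here. Alternatives were DESeq2 1.42.0, limma 3.58.1 on log2(TPM + 1), RLE size factors, no filter or a stricter filter, only the groups compared, a replicate block, a term for the run of animal numbers, each mouse left out and, chosen after seeing the data, both libraries that stood apart left out. The run of animal numbers was inferred from a gap in the numbers that end the names of the deposited counts, and not from a recorded batch. Python 3.11.15 and scipy 1.17.1 were used. The common biological coefficient of variation was 0.255.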

Additional observations from a re-analysis of the deposited data

Results flagged for a closer look

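Within each group of 4 or 5 mice, a level was singled out where its gap to the nearest other mouse was unusually wide for the range of the group (Dixon's test at the 95% level). Over the 36 groups tested (9 genes in 4 groups), 4 levels were, against 1.8 that chance gives at about 1 in 20. Angptl8 accounted for 3 of them. Mouse 5 of the Gramd1c-/- group on high cholesterol had 102.1 TPM of Angptl8, the highest of 5, and is the library that lay apart on the first principal component. Mouse 2 of the Gramd1c+/+ group on low cholesterol had 56.33 TPM, the highest of 5, and is the library with adrenal cortex and adipocyte markers. Mouse 2 of the Gramd1c-/- group on low cholesterol had 14.07 TPM, the lowest of 4. Lect2 was at 329.7 TPM in mouse 1 of the Gramd1c-/- group on low cholesterol, the highest of 4.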

How the results depend on the processing

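No member was called in any of the 7 comparisons under any alternative, except Angptl8 for diet averaged over genotypes, where 1 of 9 was called without both libraries that stood apart and where leaving out 1 mouse in turn gave 0 to 1. Of 890 alternative log2 fold changes in 38 results, 859 kept their direction and 31, in 12 results, reversed. The cause of these reversals was not tested. None of the reversed values was past the threshold. Leaving out 1 mouse in turn gave these ranges: for Gramd1c-/- over Gramd1c+/+ on low cholesterol, -0.0369 to 0.8883 for Fgf21, -0.3593 to 0.4509 for Angptl8 and -0.0891 to 0.343 for Inhbe. Averaged over diets they were -0.0268 to 0.4972 for Angptl8 and -0.0367 to 0.1163 for Igfbp2. For high over low cholesterol they were -0.311 to 0.1208 for Inhbe in Gramd1c+/+ mice and, averaged over genotypes, -0.0054 to 0.2105 for Inhbe, -0.0249 to 0.0946 for Fetub and -0.0516 to 0.1146 for Lect2. For the interaction of Igfbp1 the range was -0.0759 to 0.2644. Without both libraries that stood apart, the genotype effect on low cholesterol was 0.4503 for Angptl8 (-0.1259 with all mice). The averaged genotype effect was -0.0074 for Igfbp2 (0.0502 with all mice). The diet effect was 0.122 for Inhbe in Gramd1c+/+ mice (-0.1019 with all mice). Averaged over genotypes, the diet effect was -0.0377 for Fetub (0.0458 with all mice) and -0.0101 for Lect2 (0.0523 with all mice). The interaction was -0.1347 for Fgf21 (0.6375 with all mice) and -0.3771 for Angptl8 (0.6695 with all mice). The genotype effect on Angptl8 on high cholesterol was 0.5435 with all mice and 0.0731 without mouse 5 of the Gramd1c-/- group. With limma on log2(TPM + 1), Angptl8 was at 0.1423 for genotype on low cholesterol and Lect2 at -0.0102 for averaged diet, and the term for the run of animal numbers gave -0.0256 for Lect2. On log2(TPM + 1), 2 pairs of members passed, Angptl4 with Igfbp1 (r = 0.754) joining Fgf21 with Inhbe. Replicate numbers did not pair the mice: residuals of 27 same-number pairs had a mean r of -0.0809 and those of 108 other pairs 0.0204. The replicate block gave 0.1849 for the genotype effect on Angptl8 on low cholesterol and 0.896 for its averaged diet effect. It changed no call among the members.

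Over all genes, diet averaged over genotypes called 195 genes with edgeR, 598 with DESeq2, 122 with the replicate block, and 119 to 308 with 1 mouse left out (119, 123 and 129 without Gramd1c-/- low cholesterol mouse 2 or 3 or Gramd1c+/+ high cholesterol mouse 2, and 308 without Gramd1c+/+ low cholesterol mouse 5). For Gramd1c+/+ mice alone the diet called 66 with edgeR, 111 with DESeq2, and 42 or 41 without mouse 2 on low or on high cholesterol, and for Gramd1c-/- mice alone 49 with edgeR and 94 with DESeq2. Fgf21, with 2 to 125 counts per mouse, is the member whose precision depth limits most.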

Other observations

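Some partners of the 9 genes leaned with the diet without passing the threshold, and these were picked after their values were seen. Inhbc, the activin beta C subunit, averaged 75.1 ± 14.9 TPM in Gramd1c-/- and 60.5 ± 7.8 TPM in Gramd1c+/+ mice on high cholesterol, against 98.4 ± 25.6 TPM in Gramd1c-/- and 93.5 ± 28.2 TPM in Gramd1c+/+ mice on low cholesterol (SD, n = 5, 5, 4 and 5). Its log2 fold change for diet was -0.49 ± 0.15 SE (adjusted p = 0.109, edgeR), against 0.10 for Inhbe. Klb, which encodes the FGF21 co-receptor, averaged 12.6 ± 6.2 TPM in Gramd1c-/- and 12.8 ± 5.9 TPM in Gramd1c+/+ mice on high cholesterol, against 18.6 ± 2.3 TPM in Gramd1c-/- and 18.1 ± 2.3 TPM in Gramd1c+/+ mice on low cholesterol (SD, n = 5, 5, 4 and 5). Its diet log2 fold change was -0.57 ± 0.21 SE (adjusted p = 0.165, edgeR).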
